A study of Mus musculus with 8 samples.

Results

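The 40 genes described here encode lysosomal hydrolases and the activator proteins that help them, a set chosen by name, and all 40 were found by symbol among the 35976 genes of the table. They were grouped by the reaction that each product is known for, into 13 proteases, 12 glycosidases, 5 sulfatases, 5 lipid enzymes, 2 activator proteins, and 3 phosphatases or nucleases. The RNA came from C2C12, a line of mouse myoblasts able to fuse into myotubes, in 2 groups of 4 libraries. One group had received an shRNA against Atad2, which encodes a bromodomain ATPase of chromatin, and the other a non-targeting shRNA; RNA was collected 48 h after transfection in both. The labels name 1 cell line and 1 shRNA treatment per group and do not say whether the 4 libraries were separate transfections. The spread behind each p-value is therefore that of libraries and may be technical. In a bulk sample, fewer cells of a type and less RNA per cell cannot be told apart.

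Lysosomal hydrolases are made in the endoplasmic reticulum, tagged with mannose 6-phosphate in the Golgi, and carried by mannose 6-phosphate receptors to the acidic lysosome, where they take apart proteins, glycans, sulfated sugars, lipids and nucleic acids. Many of their genes carry an E-box-like element that TFEB and its relatives bind, so the genes can be raised together when autophagy or lysosome demand rises. In muscle, loss of some of these enzymes causes disease, as in the glycogen storage of acid alpha-glucosidase deficiency.

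Recovered depth ran from 50.3 to 72.3 Mreads in the Atad2 shRNA libraries and from 61.4 to 73.0 Mreads in the control shRNA libraries. At these depths a count of 0 allows a level of up to 0.0411 to 0.0596 RPM (3 reads of the library total), counting error only. Levels are log2(normalized read count + 1) with SD over 4 libraries, and differences are log2 fold changes of Atad2 shRNA over control shRNA ± SE. Atad2 itself stood at 11.93 ± 0.14 in the Atad2 shRNA libraries and at 14.67 ± 0.06 in the control shRNA libraries. Atad2 shRNA replicate 3 stood apart on the second principal component, which held 8.29% of the variance. All 8 markers of the labelled cell type, myoblasts, passed the filter, 3 higher (Des, Myod1 and Ncam1, 0.11 to 0.38) and 5 lower. The lower ones were Chrna1 (-0.25), Cdh15 (-0.96), Myf5 (-1.28), Pax7 (-3.27) and Msc (-3.29). Pax7 had 0 to 12 reads per Atad2 shRNA library and 19 to 41 per control library. Msc had 1 to 10 and 42 to 76, and both passed only through the control shRNA libraries. The summed level of the 8 was 926 to 991 RPM in the Atad2 shRNA libraries and 897 to 951 RPM in the control shRNA libraries. Des made up 56.8% and 48.1% of it.

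The hydrolases did not move as a block. Abundant ones such as Ctsd, Ctsb, Psap, Gaa and Lipa were higher after the Atad2 shRNA, while weaker ones such as Ctsh, Gm2a, Ctso and Sgsh were lower. Of the 40 members, 38 passed the filter on weak genes (a mean log2 level above 3), and of these 17 were higher, 14 lower and 7 did not pass (limma, adjusted p under 0.05). Over all 14703 genes tested, 30.8% were higher and 29.6% lower. The median log2 fold change was 0.0074 over the 38 members and -0.0095 over all genes tested. At least a 2-fold difference was seen for 2 members, Ctsh and Gm2a, both lower; over all genes, 2.52% were higher and 8.61% lower by that much. The values of the 2 groups did not overlap for 14 members that were higher and 11 that were lower, against 27.7% and 25.8% of all genes.

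**Figure D1:**
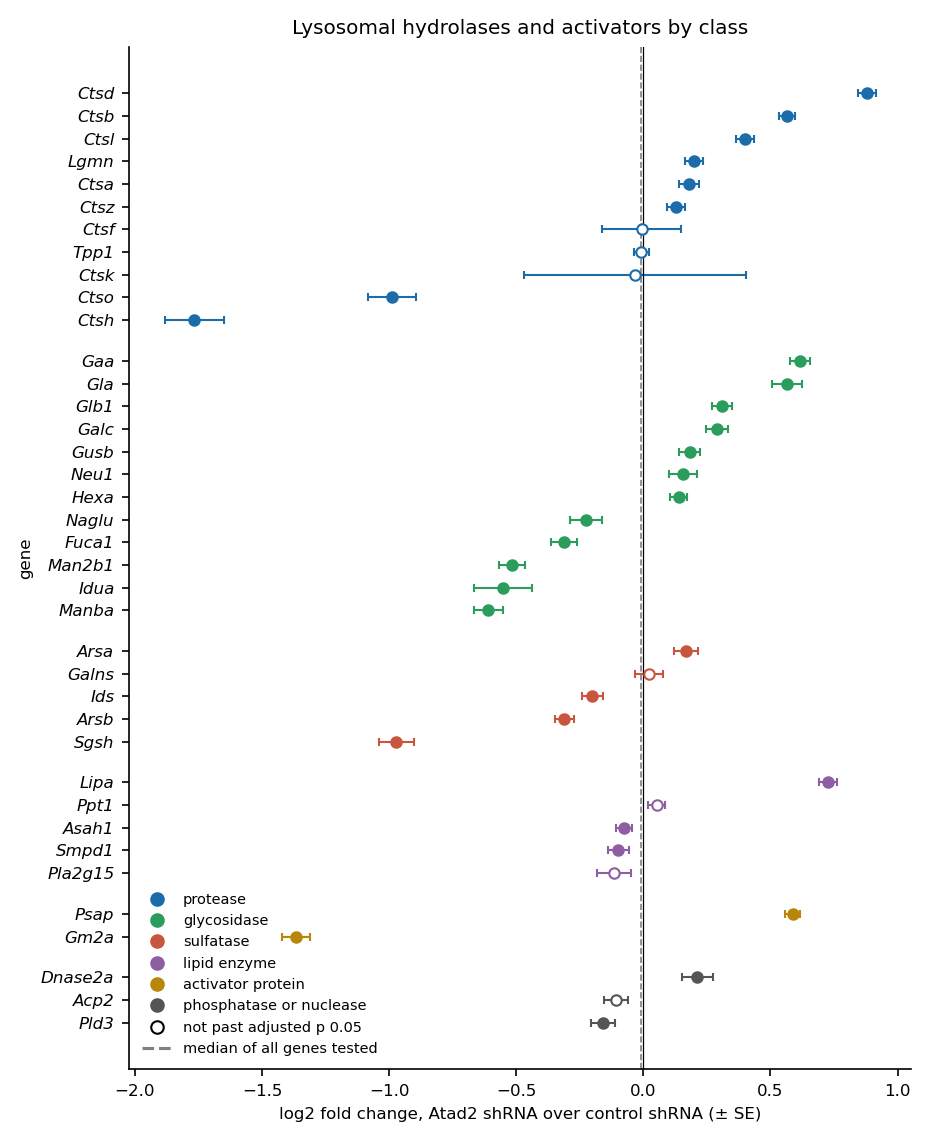
Log2 fold change (Atad2 shRNA over control shRNA, bars ± SE from limma) of the 38 members tested, ordered by class; filled points passed an adjusted p under 0.05 and open points did not. Values run from -1.77 for Ctsh to 0.88 for Ctsd, and each class holds members on both sides of 0.

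Direction went with level, as it did for genes in general. Of the 25 members with a mean log2 level above 11, 16 were higher and 6 lower; of all 6169 genes above that level, 49.9% were higher and 21.7% lower. Of the 13 members at or below 11, 1 was higher and 8 were lower, against 17% higher and 35.3% lower among all genes tested at or below that level. The members' counts depended on the scaling. With quantile normalization and with cyclic loess, 12 members were higher and 16 lower, and with limma-voom on recovered reads 12 were higher and 17 lower. Over all genes the split was 4236 higher and 4059 lower with quantile normalization, 4107 and 4141 with cyclic loess, and 3312 and 5545 with limma-voom, against 4528 and 4352 here. Without Atad2 shRNA replicate 3, 17 members were higher and 13 lower.

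**Figure D2:**
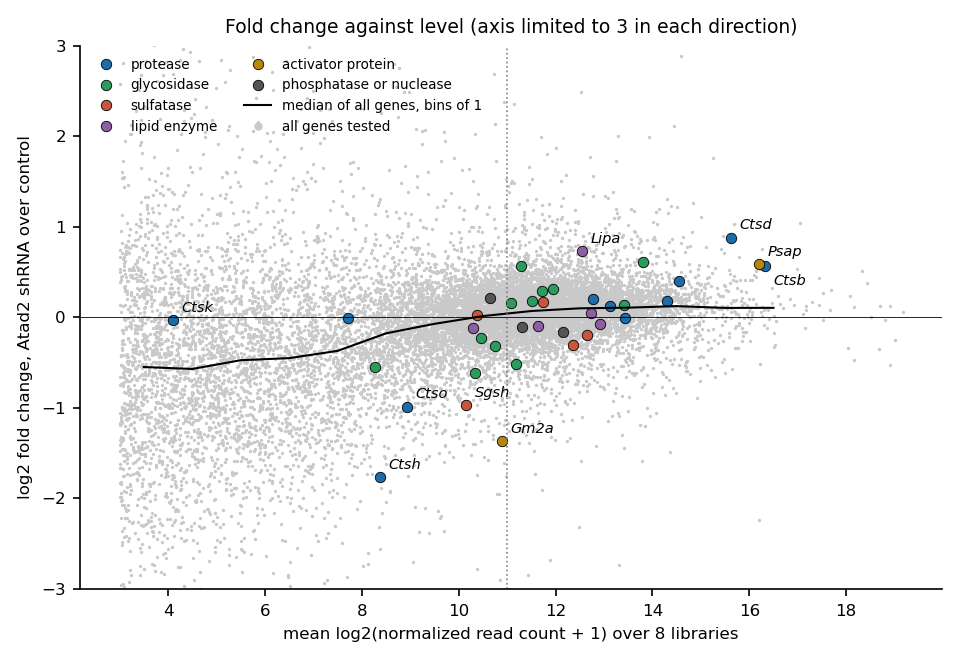
Log2 fold change (Atad2 shRNA over control shRNA) against mean log2 level over 8 libraries, with all genes tested in grey, their median per bin of 1 as a black line, and the members coloured by class; the dotted line marks a level of 11. The abundant members Ctsd, Ctsb and Psap lie above 0, and Ctsh, Ctso, Gm2a and Sgsh lie below 0 at levels under 11.

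A few genes carry most of these transcripts, and the summed level was higher although the median difference was near 0. The 40 genes together made up 6801 ± 109 RPM (normalized reads scaled to the library total) in the Atad2 shRNA libraries and 5384 ± 171 in the control shRNA libraries (SD, n = 4 each). The ranges did not overlap, at 6678 to 6942 RPM and 5189 to 5593 RPM, and the ratio of the means was 1.26. The genes Ctsb, Psap, Ctsd, Ctsl and Ctsa held 69.9% of the sum in the Atad2 shRNA libraries and 62.0% in the control shRNA libraries. The protease sum was 3781 ± 66.7 RPM with the Atad2 shRNA and 2794 ± 102 with the control shRNA. The activator sum, which is nearly all Psap, was 1433 ± 28.9 and 1044 ± 30.2. Glycosidases gave 796 ± 13.6 and 707 ± 28.7, and lipid enzymes 407 ± 11.9 and 388 ± 7.40, with library values of lipid enzymes that overlapped between the groups by 1 Atad2 shRNA library. Sulfatases went the other way, with 254 ± 13.2 RPM in the Atad2 shRNA libraries and 307 ± 7.03 in the control shRNA libraries, without overlap. The phosphatase and nuclease genes gave 130.0 ± 6.04 and 144 ± 7.30 RPM, with overlapping libraries.

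**Figure D3:**
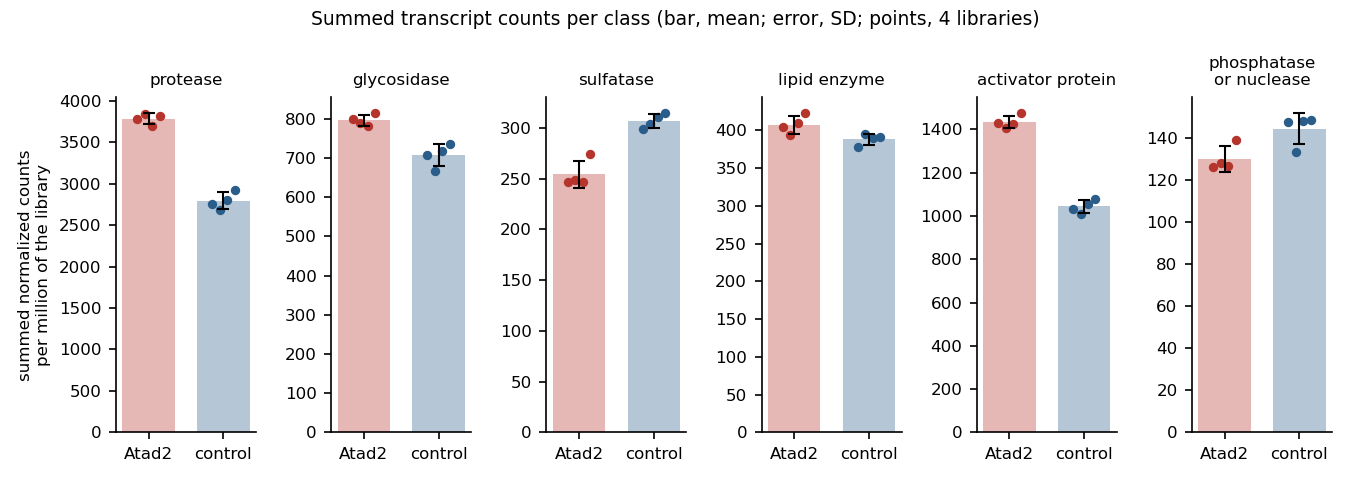
Summed level in RPM for the 6 classes (bars, mean of 4 libraries; error bars, SD; points, libraries), Atad2 shRNA on the left of control shRNA in each panel. Protease, glycosidase and activator sums are higher with the Atad2 shRNA in every library, and the sulfatase sum is lower in every library.

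Per kilobase of annotated exon, the order at the top was the same in both groups. Psap stood at 33604 ± 534 normalized counts per kb in the Atad2 shRNA libraries and 22380 ± 662 in the control shRNA libraries. Ctsd followed at 32406 ± 798 and 17626 ± 873, and Ctsb at 21104 ± 480 and 14278 ± 467. These 3 did not overlap with one another in either group, and the next gene, Ctsz, stood far below them at 6483 ± 253 and 5926 ± 168. In the control shRNA libraries the neighbours Ctsz and Hexa did not overlap, while Hexa and Ctsa did. Gla stood at rank 21 of 40 in the Atad2 shRNA libraries and rank 27 in the control shRNA libraries, and Gm2a at rank 31 and rank 24. The order depends on the exon lengths of the annotation used.

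Among the proteases, 6 of 11 tested were higher, 2 lower and 3 did not pass, with a median log2 fold change of 0.13. Over all genes tested, 30.8% were higher and 29.6% lower. Ctsd, the aspartic protease cathepsin D, stood at 16.08, 16.10, 16.02 and 16.09 in the Atad2 shRNA libraries, against 15.17, 15.12, 15.20 and 15.29 in the control shRNA libraries. Every Atad2 shRNA library was above every control library. Its difference of 0.88 ± 0.03 was a 1.84-fold higher level (limma adjusted p = 1.15e-14). Cathepsin B, a cysteine protease with endo- and exopeptidase activity, is encoded by Ctsb, which was at 16.63, 16.64, 16.57 and 16.61 against 16.06, 15.98, 16.05 and 16.10 in control libraries. Again the groups did not overlap (0.56 ± 0.03, limma adjusted p = 4.51e-12). Ctsl, the cysteine endopeptidase cathepsin L, was 1.32-fold higher, at 14.67 to 14.79 with the Atad2 shRNA and 14.28 to 14.44 with the control shRNA.

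Smaller increases were seen for Lgmn, the asparaginyl endopeptidase that processes other cathepsins (0.20 ± 0.03), for Ctsa, a carboxypeptidase that protects beta-galactosidase and neuraminidase (0.18 ± 0.04), and for the carboxypeptidase gene Ctsz (0.13 ± 0.03). The Ctsa call was lost with quantile normalization (limma adjusted p = 0.124) and cyclic loess (0.155), and that of Ctsz with these and limma-voom (limma adjusted p from 0.163 to 0.602). The annotated exons of Ctsa overlap those of Pltp on the other strand over 40.4% of their length. Pltp was lower (-0.86), and the strand setting of the counting is unknown here, which makes the split of reads between the pair uncertain. The same holds for Ctsb, whose exons overlap those of Fdft1 on the other strand over 32.6% (Fdft1 at -0.05, not passed), and for Ctsd, which shares 31.5% with the model Gm49369 on its own strand.

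The aminopeptidase gene Ctsh showed the largest difference of the 38 members tested. Ctsh was at 7.39, 7.51, 7.73 and 7.34 in the Atad2 shRNA libraries and at 9.37, 9.10, 9.26 and 9.31 in the control shRNA libraries. With 139 to 189 reads per Atad2 shRNA library and 543 to 747 per control library, it was 3.40-fold lower (-1.77 ± 0.12, limma adjusted p = 3.95e-11). Ctso, a cathepsin of less known substrates, was at 8.31 to 8.55 with the Atad2 shRNA and 9.31 to 9.57 with the control shRNA (-0.99 ± 0.09, limma adjusted p = 1.46e-08). Both genes were lower in every Atad2 shRNA library than in any control library.

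Tpp1, which removes tripeptides from the ends of proteins, had nearly the same level in both groups (13.42 ± 0.02 and 13.43 ± 0.02), with a difference of -0.0075 ± 0.03. It did not pass (limma adjusted p = 0.841), but with quantile normalization, cyclic loess and limma-voom it was called lower (-0.11 to -0.09, limma adjusted p from 0.00163 to 0.0119). The cysteine cathepsin gene Ctsf, at 7.71 ± 0.30 and 7.72 ± 0.15, overlapped between groups. Ctsk, the collagen-degrading protease of osteoclasts, was weak at 13 to 17 reads per Atad2 shRNA library and 11 to 30 per control library. Ctss, a protease of antigen-presenting cells, and Ctsc, which activates granule serine proteases, failed the filter on weak genes. Ctss had 2 to 6 reads in the Atad2 shRNA libraries and 15, 9, 0 and 0 in the control shRNA libraries. Ctsc had no read in any Atad2 shRNA library and 1 read in a single control library.

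These last 3 proteases are typical of macrophages, osteoclasts and other blood-derived cells and were weak or without reads, while the other markers of such cells were mixed. Of 14 macrophage markers, 9 failed the filter, and Adgre1, Fcgr1 and Tyrobp had no reads in any library. The summed level of the 14 was 17.3 to 20.9 RPM in the Atad2 shRNA libraries and 15.9 to 16.5 in the control shRNA libraries, mostly from Cd14 (437 to 703 reads per Atad2 shRNA library and 666 to 790 per control library) and Cd68. Cd68, which encodes a glycoprotein of the lysosomal membrane and is used as a macrophage marker, was higher (1.17 ± 0.11, limma adjusted p = 1.40e-08). Of 9 osteoclast markers, Calcr and Dcstamp had no reads, and the sum was 133 to 142 RPM with the Atad2 shRNA and 175 to 193 with the control shRNA. Most of it was Itgb3, which was lower (-0.56 ± 0.04), and Nfatc1, which did not pass (0.07 ± 0.04), while Atp6v0d2 was lower at 6 to 12 reads per Atad2 shRNA library and 29 to 65 per control library. Myotube markers summed to 16.4 to 22.1 RPM with the Atad2 shRNA and 7.99 to 11.1 with the control shRNA, of which Acta1 made up 38.2% and 83.7%. Acta1 did not pass (-0.09 ± 0.12), and the other 5 myotube markers tested, Myh3, Tmem8c, Mylpf, Tnnt3 and Myog, were all higher by 4.45-fold or more. These 5 were weak in the control shRNA libraries. Myh3 had 113 to 235 reads per Atad2 shRNA library and 1 to 9 per control library, and passed only through the Atad2 shRNA libraries. Per control library, Tnnt3 had 6 to 24 reads, Tmem8c 16 to 25, Mylpf 20 to 44 and Myog 23 to 39. The fibroblast markers summed to 309 to 394 RPM with the Atad2 shRNA and 483 to 520 with the control shRNA, with Lum and Thy1 without reads in any library. That lower sum was set by Col1a2 (-0.78 ± 0.06), which held 93.0% of it in the control shRNA libraries, whereas the other 3 tested, Pdgfra (1.31 ± 0.04), Dcn (0.74 ± 0.25) and Col1a1 (0.67 ± 0.16), were higher. The part of these cell states in the hydrolase differences was not tested.

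**Figure D4:**
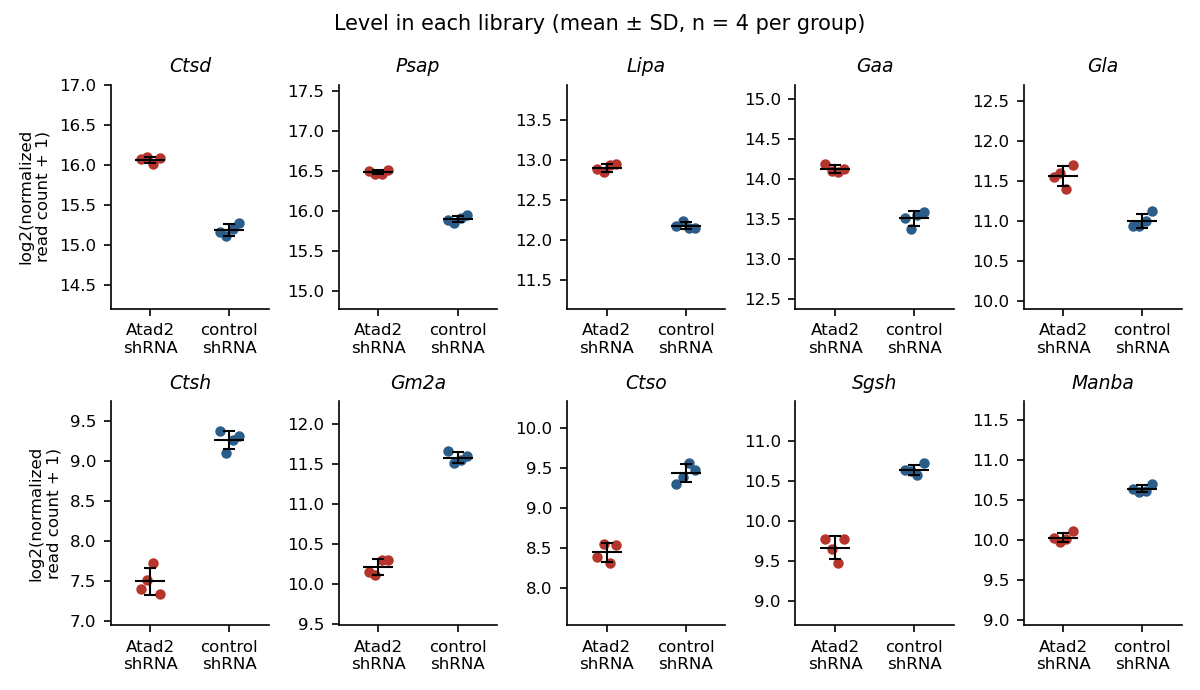
Log2(normalized read count + 1) in each library (points) with mean ± SD over 4 libraries, Atad2 shRNA on the left and control shRNA on the right, for 5 members that were higher (top) and 5 that were lower (bottom). All panels span the same height on the log2 scale, and the groups do not overlap in any of the 10 panels.

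All 12 glycosidases were tested and all passed, 7 of them higher and 5 lower, with a median of 0.15 (all genes tested, 30.8% higher and 29.6% lower). Gaa, acid alpha-glucosidase, which frees glucose from lysosomal glycogen, stood at 14.18, 14.09, 14.08 and 14.11 in the Atad2 shRNA libraries, against 13.51, 13.37, 13.54 and 13.59 in the control shRNA libraries. It was 1.53-fold higher without overlap (0.62 ± 0.04, limma adjusted p = 3.38e-11). Gla, alpha-galactosidase A, which cleaves globotriaosylceramide, was at 11.55, 11.60, 11.40 and 11.70 with the Atad2 shRNA and 10.935, 10.935, 10.999 and 11.122 with the control shRNA. The groups were again separate (0.56 ± 0.06, limma adjusted p = 3.97e-08).

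Glb1 (beta-galactosidase) and Galc (galactosylceramidase, which also acts on a lipid) rose by 0.31 ± 0.04 and 0.29 ± 0.04. Gusb (beta-glucuronidase), Neu1 (a sialidase) and Hexa (the alpha subunit of beta-hexosaminidase) rose by 0.18 ± 0.04, 0.16 ± 0.05 and 0.14 ± 0.03. The calls of Hexa and Neu1 were lost with quantile normalization, cyclic loess and limma-voom (limma adjusted p from 0.104 to 0.416 for Hexa and from 0.0589 to 0.2 for Neu1). The Neu1 call was also lost without Atad2 shRNA replicate 2 (limma adjusted p = 0.0804), control shRNA replicate 2 (0.0655) or control shRNA replicate 3 (0.0583).

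The glycosidases that were lower act on mannose, fucose and glycosaminoglycan ends, but Gusb, which also acts on glycosaminoglycans, was higher (0.18). Manba, beta-mannosidase, was at 10.03, 9.97, 10.01 and 10.11 in the Atad2 shRNA libraries and 10.64, 10.60, 10.62 and 10.70 in the control shRNA libraries. It was 1.53-fold lower without overlap (-0.61 ± 0.06, limma adjusted p = 9.03e-09). Man2b1, lysosomal alpha-mannosidase, changed by -0.52 ± 0.05, and Fuca1, alpha-fucosidase, by -0.31 ± 0.05. Idua (alpha-iduronidase) and Naglu (alpha-N-acetylglucosaminidase), both of heparan sulfate breakdown, changed by -0.55 ± 0.11 and -0.23 ± 0.06. Idua was the weakest of the 12, at 8.00 ± 0.13 with the Atad2 shRNA and 8.56 ± 0.11 with the control shRNA, and Naglu alone of the 5 had overlapping groups.

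Of the 5 sulfatases, 1 was higher, 3 were lower and 1 did not pass, with a median of -0.20 (all genes tested, 30.8% higher and 29.6% lower). Sgsh, the sulfamidase that removes N-linked sulfate from heparan sulfate, stood at 9.77, 9.65, 9.47 and 9.78 in the Atad2 shRNA libraries, against 10.63, 10.62, 10.58 and 10.73 in the control shRNA libraries. It was 1.96-fold lower, with every Atad2 shRNA library below every control library (-0.97 ± 0.07, limma adjusted p = 1.76e-10). Arsb (arylsulfatase B) and Ids (iduronate 2-sulfatase) were lower by smaller amounts, -0.31 ± 0.04 and -0.20 ± 0.04, also without overlap. Arsa, arylsulfatase A, which desulfates sulfatide, rose by 0.17 ± 0.05 with overlapping groups. Arsa no longer passed with quantile normalization, cyclic loess and limma-voom (limma adjusted p from 0.077 to 0.114). Galns, which acts on keratan sulfate and chondroitin sulfate, was at 10.39 ± 0.03 and 10.37 ± 0.06 and did not pass (limma adjusted p = 0.752). Arsb exons overlap those of the model Gm26527 on the other strand over 48.2% of their length, which makes its counts uncertain in the same way as those of Ctsa. Sgsh exons overlap those of Card14 on the other strand over 43.8% of their length, and Card14 was at 0.62 with the Atad2 shRNA and 0.24 with the control shRNA.

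The lipid enzymes differed from one another. Lipa, the acid lipase that frees cholesterol and fatty acids from lipoprotein lipids, stood at 12.89, 12.85, 12.94 and 12.96 in the Atad2 shRNA libraries and 12.18, 12.25, 12.15 and 12.16 in the control shRNA libraries. It was 1.65-fold higher without overlap (0.73 ± 0.04, limma adjusted p = 5.04e-13). The ceramidase gene Asah1 and the sphingomyelinase gene Smpd1 changed by -0.077 ± 0.03 and -0.099 ± 0.04, just past the threshold (limma adjusted p = 0.0459 and 0.0451). The Asah1 call was lost without Atad2 shRNA replicate 1, 2 or 4 or control shRNA replicate 2, 3 or 4 (limma adjusted p from 0.05 to 0.148). That of Smpd1 was lost without Atad2 shRNA replicate 2 or 3 or control shRNA replicate 2, 3 or 4 (0.0822 to 0.13). Ppt1, which removes fatty acids from proteins, and Pla2g15, a lysosomal phospholipase, did not pass, at 0.05 ± 0.03 and -0.12 ± 0.07. With limma-voom Pla2g15 was called lower (adjusted p = 0.0163).

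The 2 activator proteins went in opposite directions. Psap, the precursor of the saposins that present sphingolipids to hydrolases, was at 16.51, 16.47, 16.47 and 16.52 in the Atad2 shRNA libraries, against 15.89, 15.86, 15.91 and 15.96 in the control shRNA libraries. Gm2a, which presents the ganglioside GM2 to beta-hexosaminidase A, was at 10.15, 10.12, 10.31 and 10.30 in the Atad2 shRNA libraries and 11.67, 11.52, 11.55 and 11.60 in the control shRNA libraries. Neither gene overlapped between groups. Psap was higher (0.59 ± 0.03, limma adjusted p = 1.2e-12) and Gm2a 2.58-fold lower (-1.37 ± 0.06, limma adjusted p = 1.43e-14).

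Of the remaining 3, Dnase2a, the acid nuclease, was at 10.69 to 10.91 with the Atad2 shRNA and 10.46 to 10.66 with the control shRNA (0.21 ± 0.06, limma adjusted p = 0.00477). With limma-voom Dnase2a no longer passed (adjusted p = 0.0755). Pld3, a 5′ exonuclease of the endolysosome, changed by -0.16 ± 0.05 with overlapping groups. Acp2, lysosomal acid phosphatase, did not pass at -0.11 ± 0.05 (limma adjusted p = 0.059). It was called lower without control shRNA replicate 2 (-0.15, limma adjusted p = 0.0116) and with 4 other settings (limma adjusted p from 0.00166 to 0.0493).

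The promoters of the members were searched for the E-box core because TFEB and its relatives bind it. Windows of 250 bases before to 50 after a RefSeq start on GRCm38 were held for 36 members (39 windows; none for Ctsb, Ctsh, Galns and Asah1). The core CACGTG, a palindrome that reads alike on both strands, was in 11 of the 36, or 30.6%, against 11.4% of 10571 tested genes with a window and 7.15% of all 32851 windows. Among the 4780 tested genes with a window and a mean log2 level above 11, it was in 13.4%. With 1 flanking base, as TCACGTG on either strand, it was in 9 members (25%) against 6.63% of tested genes, and with both flanks, as the palindrome TCACGTGA, in 3 (8.33%) against 2.07%. The longer motifs contain the shorter ones, and a match is a stretch of letters, not a bound site. A match also does not tell which factor would bind it.

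The stretches below, from RefSeq on GRCm38 and 5′ to 3′ on the gene's own strand, show the 3 members with both flanks, then 1 that was higher and 2 that were lower with 1 flank, the last 3 chosen after their values were seen. Capitals mark the motif, and each stretch ends at the transcription start or earlier.
Ctsd (chr7:142387873-142387972, minus strand): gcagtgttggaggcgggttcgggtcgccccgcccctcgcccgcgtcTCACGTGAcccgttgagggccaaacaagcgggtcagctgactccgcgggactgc
Gla (chrX:134601147-134601246, minus strand): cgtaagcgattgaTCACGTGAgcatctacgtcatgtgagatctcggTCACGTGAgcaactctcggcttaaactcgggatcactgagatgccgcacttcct
Ctsa (chr2:164833731-164833772, plus strand): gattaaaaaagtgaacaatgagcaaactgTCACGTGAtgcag
Gaa (chr11:119267775-119267874, plus strand): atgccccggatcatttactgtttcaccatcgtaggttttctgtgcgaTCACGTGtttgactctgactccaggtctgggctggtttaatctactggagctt
Sgsh (chr11:119355511-119355586, minus strand): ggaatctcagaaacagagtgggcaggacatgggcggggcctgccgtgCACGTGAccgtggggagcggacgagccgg
Naglu (chr11:101069973-101070072, plus strand): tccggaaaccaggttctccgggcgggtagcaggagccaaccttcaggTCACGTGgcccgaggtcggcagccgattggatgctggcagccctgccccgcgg
The motif nearest the start began at position -99 in Ctsd, -195 in Gla, -141 in Gaa, -29 in Sgsh and -74 in Naglu, and Gla held 2 copies within the stretch shown. Ctsa held 1 copy in the stretch shown and a second E-box that began at position 4, past the start and beyond that stretch. Ctsd held another E-box, with 1 flank, further upstream in its window and outside the stretch shown. Ctsa and Lgmn each had another window, at the annotated 5′ end of the gene, without an E-box.

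Of the 11 members with an E-box, 8 were higher (Ctsd, Gaa, Gla, Ctsl, Glb1, Lgmn, Ctsa and Arsa), 2 were lower (Sgsh and Naglu) and Ctsf did not pass. The E-boxes of Ctsl, Lgmn and Ctsa lay in windows wholly inside the annotated gene, not at its 5′ end. For Ctsl no other window was held. Of the other 25, 8 were higher, 10 lower, 5 did not pass and 2 were not tested. The median log2 fold change was 0.20 with an E-box and -0.10 without, and the median level was 11.94 with and 11.30 without. Over all tested genes with a window, 38.6% of those with an E-box were higher and 23.1% lower, against 31.5% and 30.3% of those without. Among those with a mean log2 level above 11, 55.2% of the genes with an E-box were higher and 16.9% lower, against 49.3% and 22.2% of those without. No test was made over the members. Sgsh, 1 of the 4 members with the largest decreases, held on the opposite strand the 7 letters that Gaa and Glb1, which were higher, held on their own.

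**Figure D5:**
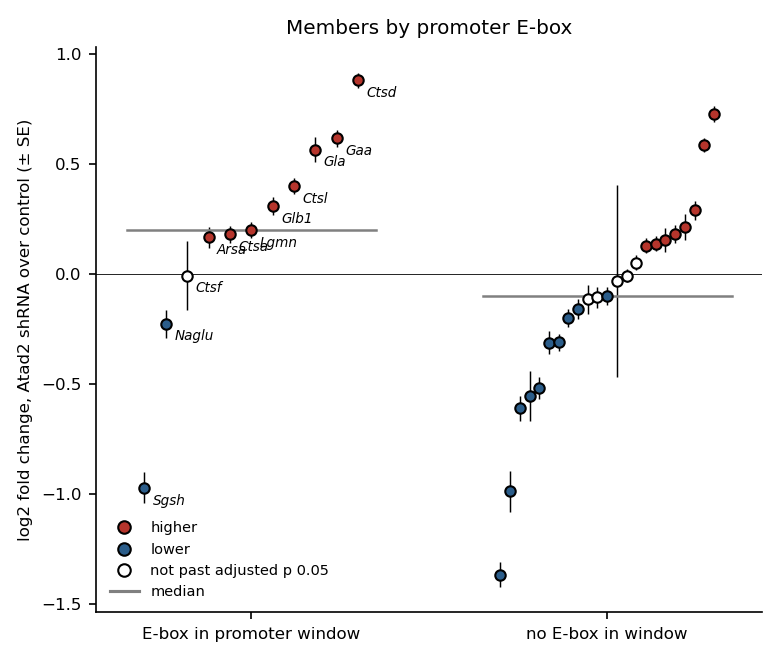
Log2 fold change (Atad2 shRNA over control shRNA, bars ± SE) of members with and without an E-box in the promoter window, in order of value within each column; red points were higher, blue points lower, and open points did not pass. The median (grey line) is 0.20 with an E-box and -0.10 without, and Sgsh and Naglu lie below 0 with one.

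Of the 4 tested genes for factors of this pathway, 3 were higher and 1 did not pass (all genes tested, 30.8% higher and 29.6% lower). Tfe3 stood at 12.97 ± 0.05 in the Atad2 shRNA libraries and 12.51 ± 0.04 in the control shRNA libraries (0.45 ± 0.04, limma adjusted p = 6.51e-10). Tfeb and Mitf rose by 0.31 ± 0.08 and 0.21 ± 0.07, and the Mitf call was lost with limma-voom (limma adjusted p = 0.143). Tfec had no reads in any library, and Zkscan3, a repressor of lysosomal genes, was at 10.58 ± 0.05 and 10.61 ± 0.08 and did not pass.

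Other lysosomal enzymes, outside the 40, were also mixed. Of 22 tested, 8 were higher, 7 lower and 7 did not pass, with a median of 0.015. Over all genes tested, 30.8% were higher and 29.6% lower. Hyal2, a hyaluronidase, rose by 0.77 ± 0.05, Prcp, a carboxypeptidase, by 0.55 ± 0.05, and Scpep1, another carboxypeptidase gene, by 0.48 ± 0.03. Hgsnat, the acetyltransferase of heparan sulfate breakdown, rose by 0.50 ± 0.04. Man2b2, an alpha-mannosidase, changed by -1.52 ± 0.06, and Siae, a sialic acid esterase, by -1.40 ± 0.14.

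Of 8 tested genes that tag hydrolases with mannose 6-phosphate or carry them as receptors, 3 were higher, 2 lower and 3 did not pass. Over all genes tested, 30.8% were higher and 29.6% lower. With quantile normalization, cyclic loess or limma-voom, 4 of the 8 were lower. Sort1 (sortilin, a sorting receptor for some hydrolases and for prosaposin) was at 5.92, 5.55, 5.60 and 5.49 in the Atad2 shRNA libraries, against 8.42, 8.21, 8.17 and 8.24 in the control shRNA libraries. It was 6.15-fold lower without overlap, at 37 to 65 reads per Atad2 shRNA library and 293 to 364 per control library (limma adjusted p = 3.98e-11). M6pr, the cation-dependent mannose 6-phosphate receptor, and Nagpa, which uncovers the tag, rose by 0.22 ± 0.03 and 0.35 ± 0.05. Scarb2, the receptor of beta-glucocerebrosidase, rose by 0.12 ± 0.03, a call lost with quantile normalization, cyclic loess and limma-voom (limma adjusted p from 0.192 to 0.555). Gnptab, the enzyme that starts the tag, changed by -0.16 ± 0.03.

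The enzyme that activates sulfatases by making their formylglycine residue is encoded by Sumf1, which changed by -0.11 ± 0.04 (limma adjusted p = 0.0299). That call was lost without Atad2 shRNA replicate 1 or 4 or control shRNA replicate 3 or 4 (limma adjusted p from 0.053 to 0.114). Its paralog Sumf2 and Erp44, a chaperone of the early secretory pathway, rose by 0.15 ± 0.06 and 0.19 ± 0.04. In this list of 4 genes, 2 were higher, 1 lower and 1 did not pass (all genes tested, 30.8% higher and 29.6% lower). The Sumf2 call was lost without Atad2 shRNA replicate 2 (limma adjusted p = 0.0961) or control shRNA replicate 1 (0.06) or 2 (0.0822), and with cyclic loess (0.0598) or limma-voom (0.237).

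Of 22 sorting adaptor, retromer and tethering genes, 13 were higher, 2 lower and 7 did not pass, with a median of 0.16. Of the 22, 19 had a level above 11, among them all 13 that were higher. Over all genes above that level, 49.9% were higher and 21.7% lower. With quantile normalization or cyclic loess 8 of the 22 were higher and 4 lower, and with limma-voom 4 were lower. Cln8, which loads new hydrolases for export from the endoplasmic reticulum, rose by 0.41 ± 0.05, Gga1, a Golgi adaptor of the mannose 6-phosphate receptors, by 0.30 ± 0.03, and Ap1s1, of the AP-1 adaptor, by 0.31 ± 0.04. Vps11, shared by the HOPS and CORVET tethers, rose by 0.34 ± 0.04, while Vps39 and Vps41, of HOPS alone, changed by -0.28 ± 0.06 and -0.24 ± 0.04.

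The list of protease inhibitors, not all of them inhibitors of cathepsins, held 10 genes. Its stefin genes Csta1, Stfa1, Stfa2 and Stfa3 had no reads in any library. Of 6 tested, 2 were higher and 4 lower (all genes tested, 30.8% higher and 29.6% lower). Cstb, which encodes the cysteine cathepsin inhibitor stefin B, rose by 0.23 ± 0.05, and Serpinb6a, a serpin that inhibits cathepsin G, by 0.26 ± 0.03. Serpinb1a, another serpin of serine proteases, changed by -1.39 ± 0.09, and the cystatin gene Cst6 by -0.31 ± 0.06. The calls of Cst3, which encodes cystatin C (-0.10 ± 0.04), and of Serping1, which encodes the complement C1 inhibitor (-1.55 ± 0.60), were lost without single libraries, and that of Serping1 also with quantile normalization and cyclic loess (limma adjusted p = 0.191 with both) and without a filter (0.0627). For Cst3 these were Atad2 shRNA replicate 2 or 3 and control shRNA replicate 1 or 4 (limma adjusted p from 0.0518 to 0.137). For Serping1 they were Atad2 shRNA replicate 4 and control shRNA replicate 1, 2 or 3 (0.0592 to 0.106). Serping1 had 1 to 16 reads per Atad2 shRNA library and 13 to 36 per control library. Without control shRNA replicate 1, 2 genes of this list were lower.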

How the data were processed

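The authors deposited 1 table of log2 values for 35976 genes by symbol in 8 libraries; the values have the form log2(x + 1), to 3 decimals, where x is a gene's reads over a library's size factor, as read from the values themselves. Low values, converted back, lay on whole multiples of 1 step per library (within 0.1 reads for 100% of them), and the recovered reads gave depth and floors; high counts are approximate. The submitters' processing notes name HTSeq 0.13.5, SAMtools 1.1, bcl2fastq 2.20, DESeq2 and mm10; no aligner, annotation or strand setting is given in the sources used here. Per the labels' protocols, total RNA was made into libraries with NEBNext directional kits and run on an Illumina NovaSeq.

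Genes with a mean log2 level above 3 were tested two-sided in R 4.3.3 using limma 3.58.1, as a 2-group linear model without covariates and with moderated variances that follow a trend in level, with Benjamini-Hochberg adjustment over 14703 genes. The log2 fold change understates differences of weak genes. The same fit was also run on simulated counts with known differences. Those counts were scaled by their true size factors, so the run does not test the scaling. Exon lengths and overlaps came from GENCODE M21 (GRCm38), matched by symbol for 26705 genes, and promoter windows from RefSeq on GRCm38. Tables and plots were made in Python 3.11.15 with pandas 2.3.3, NumPy 2.4.6 and matplotlib 3.10.9.

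The members and gene lists were chosen with earlier results of these data known. All members could be named; of each other list, up to 4 called genes of the commoner direction and 2 of the other by adjusted p, and Tfeb, Tfe3 and Mitf. Other genes named (Zkscan3, the markers with reads and the exon-overlapping genes) were added after their values were seen. Protein sequences were not used here.

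Results were recomputed with quantile, cyclic loess and median scaling, with limma-voom on recovered reads, with a mean level above 5 or no filter at all, with 8 in place of 1 as offset, at an adjusted p under 0.01, with the replicate block, and without each library in turn.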

Additional observations from a re-analysis of the deposited data

Results flagged for a closer look

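In 153 groups of 4 values checked (members, named genes and class sums in each group), 7 held a library far from the other 3, where chance alone gives about 1 in 20. Of these, 5 were Atad2 shRNA replicate 4. Ppt1 was at 12.82 there, against 12.74 to 12.75 in the other Atad2 shRNA libraries, Dnase2a at 10.91 against 10.69 to 10.72, and Serpinb1a at 10.06 against 9.45 to 9.54. The sulfatase sum was 274 RPM in that library against 247 to 249, and the sum of the phosphatase and nuclease genes 138.9 against 126 to 128. In control shRNA replicate 2 that last sum was 133.5 RPM against 148 to 149, and Ctsc was at 1.00 on the log2 scale, which is 1 read, against 0 in the other control libraries.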

How the results depend on the processing

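Of the 31 members called, 23 kept their direction and their call under all 17 alternatives, and none of the 31 changed sign; the exceptions were Ctsa, Ctsz, Hexa, Neu1, Arsa, Asah1, Smpd1 and Dnase2a. Uncalled members changed sign as follows: Ctsf to 0.27 (cyclic loess), 0.33 (quantile), 0.019 and 0.12 (without Atad2 shRNA replicate 1 and 3) and 0.066 (without control shRNA replicate 4; range with 1 library left out, -0.092 to 0.12), Ctsk to 0.54 (cyclic loess), 0.52 (quantile), 0.10 (without Atad2 shRNA replicate 1) and 0.22 (without control shRNA replicate 1; range -0.24 to 0.22), Galns to -0.058 (limma-voom), and Ppt1 to -0.045 (cyclic loess), -0.028 (limma-voom) and -0.047 (quantile). Sulfatases higher fell to 0 with cyclic loess, limma-voom and quantile scaling. Lipid enzymes lower fell to 0 with an adjusted p under 0.01, without a filter and with the replicate block, and ran from 0 to 2 with 1 library left out. With limma-voom 3 lipid enzymes were lower. With cyclic loess, limma-voom and quantile scaling, tagging and receptor genes lower numbered 4, sulfatase activation genes lower 2, and sorting genes lower 4; with cyclic loess and quantile scaling 8 sorting genes were higher, and with cyclic loess and limma-voom 1 sulfatase activation gene. At an adjusted p under 0.01, 1 sulfatase activation gene was higher, 0 were lower and 2 genes of the inhibitor list were lower. With 1 library left out, sulfatase activation genes ran from 1 to 2 higher and 0 to 1 lower, and the inhibitor list from 2 to 4 lower. Members then ran from 16 to 17 higher and 12 to 14 lower, and all genes from 4254 to 4573 higher and 4039 to 4401 lower. Same-numbered libraries did not deviate together (r from -0.0227 to 0.0336). This cannot show whether they were prepared in pairs, which the labels do not say. With the replicate block 17 members were higher and 13 lower, against 4562 and 4379 of all genes, and Acp2 became a call. The cause of these differences was not tested.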

Other observations

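Sorted by substrate, a grouping made after the values were seen and given without a test, the members gave the counts that follow. Over all genes tested, 30.8% were higher and 29.6% lower. Of the genes for the breakdown of heparan and dermatan sulfate, Sgsh, Idua, Naglu, Ids and Arsb were lower (-0.97 to -0.20), while Gusb was higher (0.18) and Hgsnat, outside the 40, was higher (0.50). All of the genes that trim mannose or fucose from glycoproteins, Manba, Man2b1 and Fuca1, were lower (-0.61 to -0.31), as was Man2b2, outside the 40 (-1.52).

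Of the genes that act on glycosphingolipids, Psap, Gla, Glb1, Galc, Arsa, Neu1 and Hexa were higher (0.14 to 0.59), with the calls of Arsa, Neu1 and Hexa lost under other scalings, and Gm2a was lower (-1.37). The genes of ceramide and sphingomyelin cleavage, Asah1 and Smpd1, differed by -0.077 and -0.099, with calls lost without single libraries.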
